A study of Mus musculus with 16 samples.

Results

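The genes described here are 10 genes of hepatic glucose output and insulin signalling, chosen by symbol from the deposited table of 30199 genes, and all 10 were found in it. They are the gluconeogenic enzyme genes G6pc, Fbp1 and Pcx, the coactivator gene Ppargc1a, the amino acid enzyme gene Tat, the insulin receptor gene Insr, the receptor substrate genes Irs1 and Irs2, the kinase gene Akt2 and the transcription factor gene Foxo1. They were followed in the livers of 16 female mice aged 5 months, with 1 poly(A)-selected RNA-seq library per mouse and 4 mice per genotype. The genotypes were wild type (Ncoa5+/+Tip30+/+), Ncoa5+/- (with Tip30+/+), Tip30+/- (with Ncoa5+/+) and Ncoa5+/-Tip30+/-, called double heterozygotes below. The Ncoa5 product is a nuclear receptor coregulator, and the gene usually called Tip30 carries the symbol Htatip2 and encodes a protein of the short-chain dehydrogenase family. The deletions are heterozygous, and the labels name no driver or cell type for them. The labels call the tissue liver of mainly hepatocytes, from mice with free access to a standard diet under equal hours of light and dark. The sources used here do not give the strain, the deleted part of each gene or the hour of collection.

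In fasting, the liver makes glucose from lactate, glycerol and amino acids. Pyruvate carboxylase (Pcx) opens the path in the mitochondrion, fructose-1,6-bisphosphatase (Fbp1) acts in the middle and glucose-6-phosphatase (G6pc) releases free glucose. After a meal, insulin binds its receptor (Insr), the receptor phosphorylates the substrates IRS1 and IRS2, and through PI3-kinase these activate AKT2, the main AKT form in the action of insulin on hepatic metabolism. AKT phosphorylates the transcription factor FOXO1 and moves it out of the nucleus, which lowers transcription of G6pc and Irs2, while fasting, glucagon and glucocorticoids raise the coactivator PGC-1alpha (Ppargc1a) and its gluconeogenic targets.

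Promoter letters are given for G6pc, Irs1 and Irs2. Of the 9 genes with a promoter sequence, these 3 held the core of the classical insulin response element (TGTTTTG on either strand). The window ran from 250 bases before to 50 bases after a start site. Within genotypes these 3 also had the largest SD of the 10 genes (0.89, 0.55 and 0.67 on the log2 scale). Tat, without a match, followed at 0.49, and a relation of the motif to spread was not tested. Sequences are from RefSeq on GRCm38.p6, where 9 of the 10 genes matched an entry by symbol and Insr did not. Only the 250 bases before the start are printed, on the gene's strand, with matches in capitals. RefSeq start sites need not coincide with the ends of the gene spans given further on, which are from GENCODE M21.
G6pc, chr11:101367466-101367715, plus strand: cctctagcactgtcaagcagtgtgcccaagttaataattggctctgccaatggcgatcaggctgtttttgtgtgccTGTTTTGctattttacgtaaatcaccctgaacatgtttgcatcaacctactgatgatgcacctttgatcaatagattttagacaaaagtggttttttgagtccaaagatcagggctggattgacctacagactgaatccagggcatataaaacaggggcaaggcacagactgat
Irs1, chr1:82291440-82291689, minus strand: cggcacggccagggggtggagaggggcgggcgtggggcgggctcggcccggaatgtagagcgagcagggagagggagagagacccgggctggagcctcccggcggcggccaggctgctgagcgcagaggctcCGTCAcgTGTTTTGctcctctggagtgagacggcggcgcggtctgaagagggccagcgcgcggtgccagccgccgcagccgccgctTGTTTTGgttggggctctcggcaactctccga
Irs2, chr8:11008930-11009179, minus strand: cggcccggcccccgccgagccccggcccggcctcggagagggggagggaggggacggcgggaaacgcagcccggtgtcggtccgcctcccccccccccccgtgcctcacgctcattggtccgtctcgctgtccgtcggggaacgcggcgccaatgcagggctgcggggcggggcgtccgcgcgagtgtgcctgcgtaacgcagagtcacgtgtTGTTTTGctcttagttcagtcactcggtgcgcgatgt
The TGTTTTG match of G6pc begins 174 bases before the start, that of Irs2 37 bases before it, and those of Irs1 111 and 32 bases before it. The capital CGTCA in Irs1 is the half-site TGACG of a cAMP response element, read on the other strand, 118 bases before the start. TGTTTTG was present in at least 1 such window of 7.20% of 27025 genes. Of the other motifs searched, 3 had no exact match in the windows of the 9 genes: the FOXO element TGTTTAC (4.05% of genes), the full cAMP response element TGACGTCA (2.03%) and the palindromic glucocorticoid response element (0.0111%). Near matches and other forms of these elements were not searched, so this does not show that such sites are lacking. The half-site TGACG was found for Ppargc1a, Irs1 and Akt2, and in 23.1% of all genes. Letters that match are a description of these windows and not evidence of binding.

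Libraries held 24740706 to 37939978 reads assigned to genes, with at least 1 read for 21686 to 24142 genes. The mitochondrial share of reads was 4.96% to 5.80% in the 8 livers without the Ncoa5 deletion, 3.42% to 5.59% in Ncoa5+/- and 3.60% to 5.50% in double heterozygotes, where Ncoa5+/- 1 and 3 and double heterozygote 1 stood lowest. Values below are normalized counts, that is reads divided by a size factor per library, unless another scale is named. Htatip2 lay at 685 to 986 in Tip30+/- and 837 to 1089 in double heterozygotes against 1835 to 2910 in the 8 livers without that deletion, as labelled. Ncoa5 did not separate the genotypes (log2 difference of Ncoa5+/- from wild type -0.16 ± 0.10, limma adjusted p = 0.658), so its reads do not check that label. A set of 4 livers, wild type 1 and 2 and Ncoa5+/- 1 and 4, stood apart with 8.77 to 26.3 counts of the transcription factor gene Zhx2 against 167 to 438 in the other 12, and results that rest on them are given with and without them. Of 8 hepatocyte markers, 7 have a row and none of these was near 0. The 4 skeletal muscle markers summed to at most 11.5 counts in a liver.

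None of the 10 genes passed an adjusted p under 0.05 in the main test, limma on log2(count + 1) with Benjamini-Hochberg adjustment. The adjustment was over 15263 genes with a mean of at least 10, a filter that all 10 passed. Against wild type, 0 of 10 passed in Ncoa5+/- livers (0.557% of all genes tested), 0 in Tip30+/- livers (0.0131%) and 0 in double heterozygotes (2.67%). For the Ncoa5 deletion averaged over both Tip30 backgrounds, 8 livers against 8, 0 of 10 passed where 7.89% of all genes did. For the Tip30 deletion averaged likewise 0 passed (0.131% of all genes). The interaction, which asks whether the effect of 1 deletion depends on the other, gave 0 of 10 and 0% of all genes, with 650 genes at an unadjusted p under 0.05 by limma and 1 call by DESeq2. At an unadjusted p under 0.05, limma had 2 members (Pcx and Insr) for the averaged Ncoa5 deletion (26.1% of all genes), 1 (Irs2) for the averaged Tip30 deletion (11.8%) and 0 in the other 4 comparisons. DESeq2 called 1 member, Pcx for the averaged Ncoa5 deletion, and edgeR 0 in the 6 comparisons.

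Groups of livers that do not overlap were also counted. Only Irs2 in double heterozygotes lay wholly below wild type, 1 of 10 members beside 10.7% of all genes. No member separated Ncoa5+/- (5.67% of genes) or Tip30+/- (4.44%) from wild type, nor the 8 livers with a deletion from the 8 without it, for Ncoa5 (1.05%) or for Tip30 (0.0852%). In the main test all 10 fitted log2 differences were below 0 for the averaged Ncoa5 deletion, with a median of -0.22 where that of all genes tested was -0.01. G6pc stood at -0.01 among them, and its sign differed in 10 of 27 other settings (0.18 with DESeq2 and with edgeR, 0.00 with TMM scaling, -0.35 without the Zhx2-low livers). For the averaged Tip30 deletion 5 were below and 5 above 0, with a median of 0.01. These comparisons share livers, so their directions are not independent of each other. The 10 genes were measured in the same livers, so their signs within 1 comparison are not independent either.

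**Figure D1:**
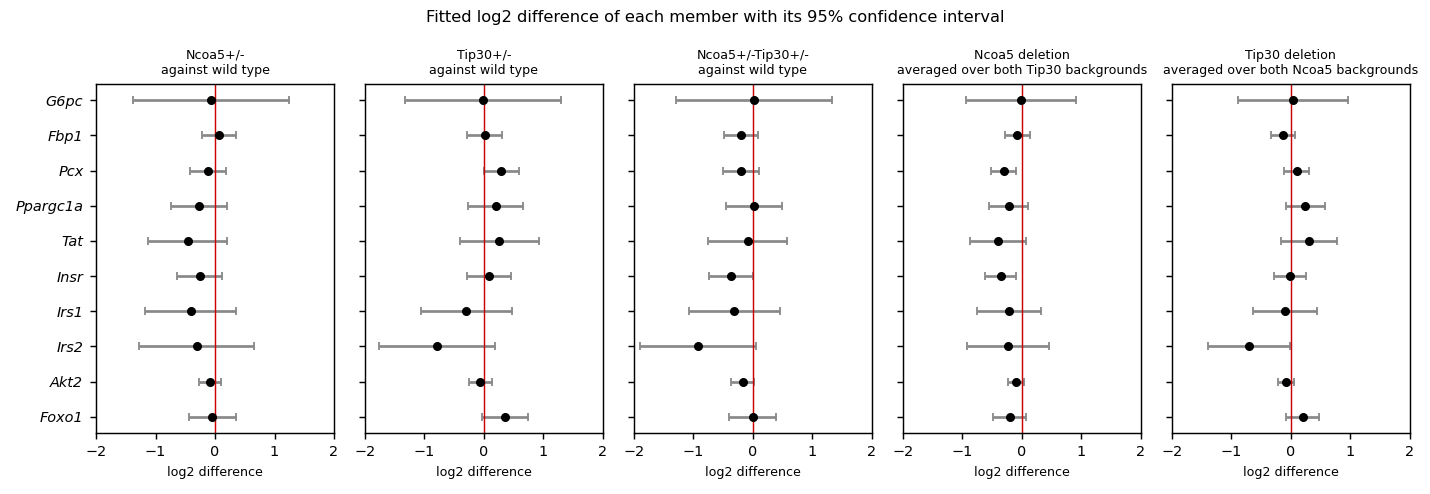
Fitted log2 difference (horizontal axis) of each of the 10 genes in 5 comparisons, 1 per panel, as points with 95% confidence intervals from limma. Intervals of G6pc reach beyond 1 in both directions in the comparisons with wild type, while those of Akt2 go no lower than -0.36, and the point for Pcx under the averaged Ncoa5 deletion lies at -0.30 with an interval that ends at -0.09.

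Levels between genes were set in order per exon length, as TPM, the reads per exon base scaled to a common total, computed from the reads recovered from the table. The gluconeogenic and amino acid enzymes led. Fbp1 had a median of 1418 over the 16 livers and Tat 1294, and Fbp1 was the higher of the pair in 9 of 16 livers. Pcx followed at 304 and was below Tat in 16 of 16 livers, then G6pc at 190, below Pcx in 12 of 16. The signalling genes were far lower and kept their order in most livers: Akt2 had a median of 53.0, Insr 18.02, Irs2 9.09, Foxo1 6.05, Irs1 2.88 and Ppargc1a 2.35. Irs2 exceeded Foxo1 in 9 of 16 livers and Irs1 exceeded Ppargc1a in 11 of 16, while Akt2 over Insr, Insr over Irs2 and Foxo1 over Irs1 held in 16 of 16.

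**Figure D2:**
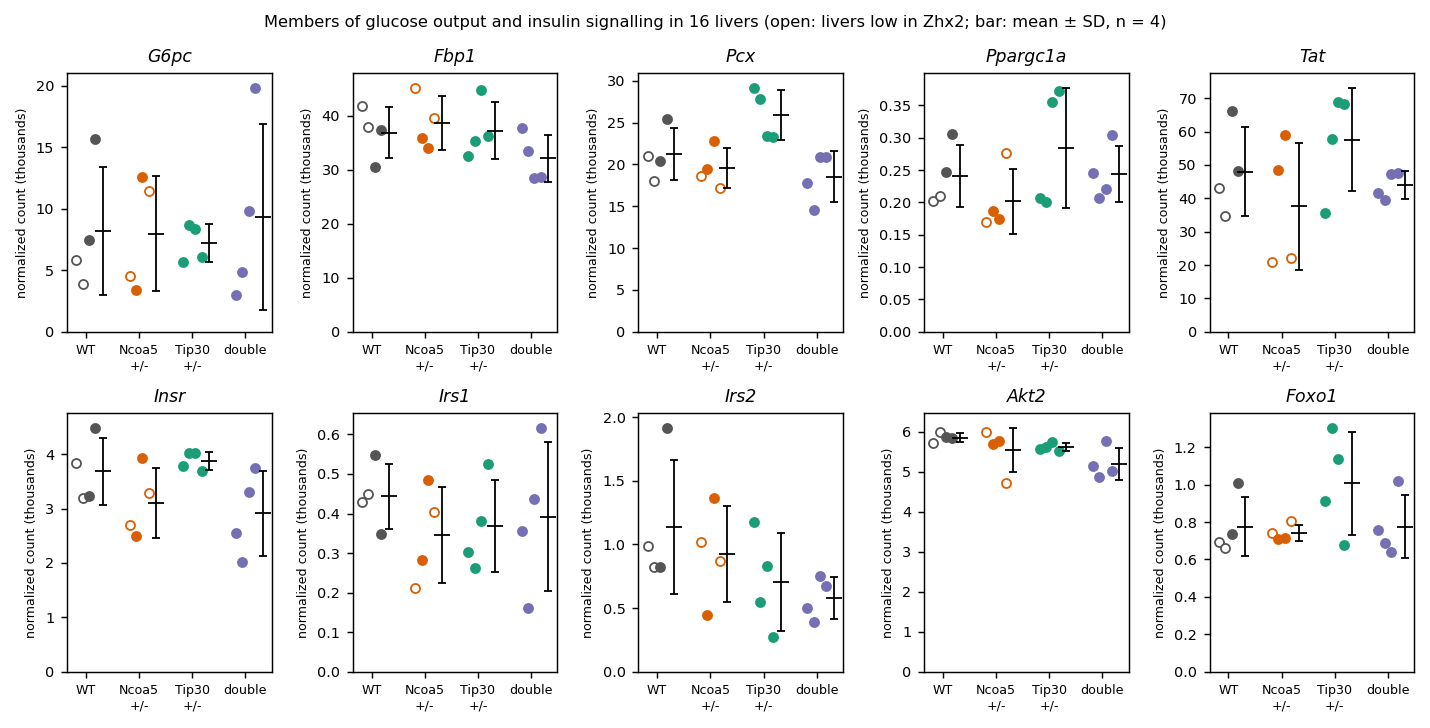
Normalized counts (vertical axes, from 0) of the 10 genes in each of 16 livers by genotype, where WT is wild type and double is Ncoa5+/-Tip30+/-. Bars are mean ± SD of 4 mice and open points are the 4 livers low in Zhx2; G6pc and Irs2 range widely within genotypes and Akt2 the least of the 10.

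G6pc (ENSMUSG00000078650, GRCm38 chromosome 11, 101367561 to 101377903, plus strand, 5 exon blocks) encodes the catalytic subunit of glucose-6-phosphatase. Wild-type livers held 5855, 3844, 7434 and 15645 normalized counts and Ncoa5+/- livers 4547, 3354, 12589 and 11407. Tip30+/- livers held 5674, 8663, 8351 and 6076, and double heterozygotes 2962, 4813, 9770 and 19808. Low and high livers occurred in wild type, Ncoa5+/- and double heterozygotes alike, and every pair of groups overlapped. The fitted log2 difference of double heterozygotes from wild type was 0.02 ± 0.61 (SE, 95% confidence interval -1.29 to 1.33, limma adjusted p = 0.989), an interval that holds more than a doubling and more than a halving. It was -0.57 without the 4 Zhx2-low livers (limma adjusted p = 0.746), and with 1 liver left out it ran from -0.46 (without double heterozygote 4) to 0.45 (without double heterozygote 1). Of the variance of log2 G6pc, 0.160% lay between genotypes, where the median gene had 28.6%. Means of 4 livers differ by chance too, so such a share is not all an effect of genotype. The SD within genotypes was 0.89 on the log2 scale, against a median of 0.26 over all genes tested, and 3.66% of genes had a larger one. The Tip30+/- group had the narrowest spread, with a mean of 7191 ± 1534 (SD, n = 4) beside 9338 ± 7549 in double heterozygotes. The difference in spread was not tested.

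Fbp1 (ENSMUSG00000069805, chromosome 13, 62864753 to 62888282, minus strand) encodes the fructose-1,6-bisphosphatase of liver. It ran from 30481 to 41792 normalized counts in wild type, 33970 to 45168 in Ncoa5+/-, 32488 to 44808 in Tip30+/- and 28474 to 37734 in double heterozygotes. The 2 lowest livers of the 16 were double heterozygotes, at 28474 and 28731, yet that group overlapped wild type (log2 difference -0.20 ± 0.14, limma adjusted p = 0.406). That difference was -0.08 without the 4 Zhx2-low livers (limma adjusted p = 0.835).

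Pcx (ENSMUSG00000024892, chromosome 19, 4510472 to 4621752, plus strand, 25 exon blocks) encodes pyruvate carboxylase and was the member nearest to a call. Wild-type livers held 21050, 18018, 20430 and 25428 normalized counts and Ncoa5+/- livers 18623, 19406, 22852 and 17236. Tip30+/- livers held 29149, 27855, 23339 and 23299, and double heterozygotes 17795, 14511, 20928 and 20873. All 4 Tip30+/- livers lay above all 8 livers with the Ncoa5 deletion, the nearest at 23299 and 22852, while wild type overlapped every group. The share of all genes with such a split was not counted. Averaged over both Tip30 backgrounds, livers with the Ncoa5 deletion stood at 81.0% of those without it (log2 difference -0.30 ± 0.10, 95% confidence interval -0.52 to -0.09, limma adjusted p = 0.0690). This missed the threshold in the main test and passed it with DESeq2 (adjusted p = 0.0384), with the range of mouse tag numbers as a covariate (0.0383, limma) and without wild type 2 (0.0467), Ncoa5+/- 3 (0.0450) or double heterozygote 4 (0.0483). Without the 4 Zhx2-low livers the difference was the same size, -0.30, at a limma adjusted p of 0.166. The interaction was -0.37 ± 0.20 (limma adjusted p = 0.950). Of the variance of log2 Pcx, 53.2% lay between genotypes, the largest share among the 10 genes.

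Ppargc1a (ENSMUSG00000029167, chromosome 5, 51454250 to 51567726, minus strand), the gene of PGC-1alpha, was the least abundant member per length, with 150 to 366 recovered reads a liver. Its normalized counts were 203, 209, 246 and 306 in wild type and 169, 186, 174 and 277 in Ncoa5+/-. They were 207, 200, 356 and 373 in Tip30+/- and 245, 206, 221 and 304 in double heterozygotes. Within Tip30+/- the livers fell into a lower and a higher pair, and Ncoa5+/- 4 stood above the other 3 of its group. The largest fitted difference from wild type was -0.27 ± 0.22 in Ncoa5+/- (limma adjusted p = 0.752). It was -0.61 without the 4 Zhx2-low livers and between -0.43 and -0.15 with 1 liver left out, the ends being those without Ncoa5+/- 4 and without wild type 4. The averaged Tip30 deletion gave 0.24 ± 0.16 (0.576).

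Tat (ENSMUSG00000001670, chromosome 8, 109990437 to 109999803, plus strand) encodes tyrosine aminotransferase, an enzyme of tyrosine breakdown induced by glucocorticoids and glucagon. Wild-type livers held 43016, 34548, 66028 and 48192 normalized counts and Ncoa5+/- livers 20963, 48440, 58928 and 22167. Tip30+/- livers held 35673, 57690, 68879 and 68208, and double heterozygotes 41453, 39584, 47347 and 47666. The lowest livers of Ncoa5+/- (1 and 4) and of wild type (1 and 2) were those low in Zhx2. With them the difference of Ncoa5+/- from wild type was -0.46 ± 0.31 (limma adjusted p = 0.684) and without them it was -0.08 (0.960). Against wild type, Tip30+/- gave 0.26 ± 0.31 with them (0.879) and -0.02 without (0.9999). The part of the Zhx2-low state in these values was not tested.

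Insr (ENSMUSG00000005534, chromosome 8, 3122061 to 3279617, minus strand, 23 exon blocks) encodes the insulin receptor. Wild-type livers held 3842, 3192, 3224 and 4487 normalized counts and Ncoa5+/- livers 2694, 2488, 3931 and 3287. Tip30+/- livers held 3776, 4015, 4024 and 3690, and double heterozygotes 2559, 2017, 3311 and 3756. Tip30+/- livers were close together (CV 4.36%), and the 4 lowest livers of all carried the Ncoa5 deletion, but the 4 others with it reached into the range of the rest. The averaged Ncoa5 deletion gave a log2 difference of -0.36 ± 0.13, 78.2% of the level without it (95% confidence interval -0.62 to -0.09, limma adjusted p = 0.0862). It passed with the mouse tag covariate (0.0224, limma) and without Ncoa5+/- 3 (0.0437) or double heterozygote 4 (0.0345), and not with DESeq2 (0.0855) or edgeR (0.117). Without the 4 Zhx2-low livers it was -0.37 (limma adjusted p = 0.220). The Tip30 deletion averaged over both Ncoa5 backgrounds left Insr at 99.2% (-0.01 ± 0.13, 95% confidence interval -0.27 to 0.25).

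Irs1 (ENSMUSG00000055980, chromosome 1, 82233101 to 82291416, minus strand) encodes insulin receptor substrate 1. Its normalized counts were 429, 449, 548 and 348 in wild type, 213, 283, 485 and 403 in Ncoa5+/-, 304, 261, 382 and 525 in Tip30+/- and 355, 161, 437 and 617 in double heterozygotes. The lowest and the highest of the 16 were both double heterozygotes, a 3.83-fold range, and 9.36% of the variance lay between genotypes. Of its exon bases, 30.9% overlap those of Gm9747 on the opposite strand, and no strand marking is stated, so reads there cannot be told apart. No comparison came near the threshold (differences from wild type -0.41 ± 0.36, -0.30 ± 0.36 and -0.31 ± 0.36 in Ncoa5+/-, Tip30+/- and double heterozygotes, lowest limma adjusted p = 0.643). With 1 liver left out the difference of double heterozygotes ran from -0.58 to 0.06, the upper end without its lowest liver, double heterozygote 2. The difference of Ncoa5+/- ran from -0.59 to -0.20 in the same way and was -0.24 without the Zhx2-low livers, and that of Tip30+/- ran from -0.49 to -0.15.

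Irs2 (ENSMUSG00000038894, chromosome 8, 10984681 to 11008458, minus strand) encodes insulin receptor substrate 2, the substrate whose transcription FOXO1 raises in fasting. Wild-type livers held 987, 826, 821 and 1917 normalized counts and Ncoa5+/- livers 1020, 446, 1364 and 871. Tip30+/- livers held 1175, 545, 830 and 272, and double heterozygotes 501, 388, 751 and 671. The double heterozygotes lay below all wild-type livers, with means of 578 ± 164 and 1138 ± 525 (SD, n = 4). The log2 difference was -0.93 ± 0.45, 52.6% of wild type, with a 95% confidence interval of -1.90 to 0.04 and a limma adjusted p of 0.248. An exact permutation test (two-sided, 70 arrangements) gave p = 0.0286, the smallest possible here, which became 0.571 after adjustment over the 30 tests of 10 genes in 3 comparisons. The gap depends on few livers: double heterozygote 3 at 751 and wild type 3 at 821 are neighbours. For the averaged Tip30 deletion the difference was -0.70 ± 0.32 (limma adjusted p = 0.414), with overlapping groups. The range over the 16 livers was 7.04-fold, and 8.46% of genes tested had a larger SD within genotypes.

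Akt2 (ENSMUSG00000004056, chromosome 7, 27591552 to 27640826, plus strand) was the steadiest member, and 98.4% of genes tested had a larger SD within genotypes. It lay at 5704 to 5985 normalized counts in wild type, 4723 to 5989 in Ncoa5+/-, 5519 to 5733 in Tip30+/- and 4858 to 5772 in double heterozygotes. Of the 4 double heterozygotes, 3 were below every wild-type liver and 1 lay inside their range. The largest fitted difference was -0.17 ± 0.09 in double heterozygotes, 88.7% of wild type (95% confidence interval -0.36 to 0.02, limma adjusted p = 0.266).

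Foxo1 (ENSMUSG00000044167, chromosome 3, 52268336 to 52353221, plus strand) held 692, 664, 737 and 1007 normalized counts in wild type and 740, 708, 715 and 805 in Ncoa5+/-. It held 911, 1304, 1139 and 675 in Tip30+/- and 755, 688, 640 and 1020 in double heterozygotes. The 2 highest livers were Tip30+/-, and another liver of that genotype was the third lowest of all. The difference of Tip30+/- from wild type was 0.35 ± 0.19 (limma adjusted p = 0.721). It was 0.18 without the Zhx2-low livers (0.994, limma), 0.22 without Tip30+/- 2 and 0.53 without Tip30+/- 4. Of its exon bases 7.78% overlap other annotated genes. This is a measure of transcript, and the transport of FOXO1 protein that insulin controls was not measured.

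The variation from liver to liver within genotypes was compared between members. For 45 pairs, log2 values less their genotype means were correlated across 16 livers, with permutation within genotypes and adjustment over the 45. By Pearson's r the sign was positive in 29 pairs, 6 pairs had an unadjusted permutation p under 0.05, and 0 passed after adjustment. Insr was in the 3 pairs of lowest p. G6pc and Insr gave Pearson's r = 0.85 and Spearman's rho = 0.88 (permutation p = 0.00466 and 0.00348, adjusted 0.0742 and 0.0783), with r = 0.75 without wild type 4 and double heterozygote 4, the 2 livers farthest from the median of G6pc, and 0.88 without the 4 Zhx2-low livers. Pcx and Insr gave r = 0.75 and rho = 0.69 (permutation p = 0.00495 and 0.0168, adjusted 0.0742 and 0.207), with r = 0.70 without the 2 farthest livers.

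Insr and Irs2 gave r = 0.63 and rho = 0.69 (permutation p = 0.00124 and 0.000730, adjusted 0.0558 and 0.0329), so the rank correlation passed and Pearson's did not, and r was 0.51 without Ncoa5+/- 2 and double heterozygote 2. With TMM scaling the adjusted permutation p of this pair's r was 0.0401, the single pair to pass. Its r was 0.67 without the 4 Zhx2-low livers (adjusted permutation p = 0.318), where 0 of the 45 pairs passed. The substrates Irs1 and Irs2 gave r = 0.05 and rho = 0.02 (adjusted permutation p = 0.915 and 0.979). Fbp1 ran against Pcx at r = -0.49 and rho = -0.51 (adjusted permutation p = 0.354 and 0.352). Values in 1 library share its depth and its size factor.

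**Figure D3:**
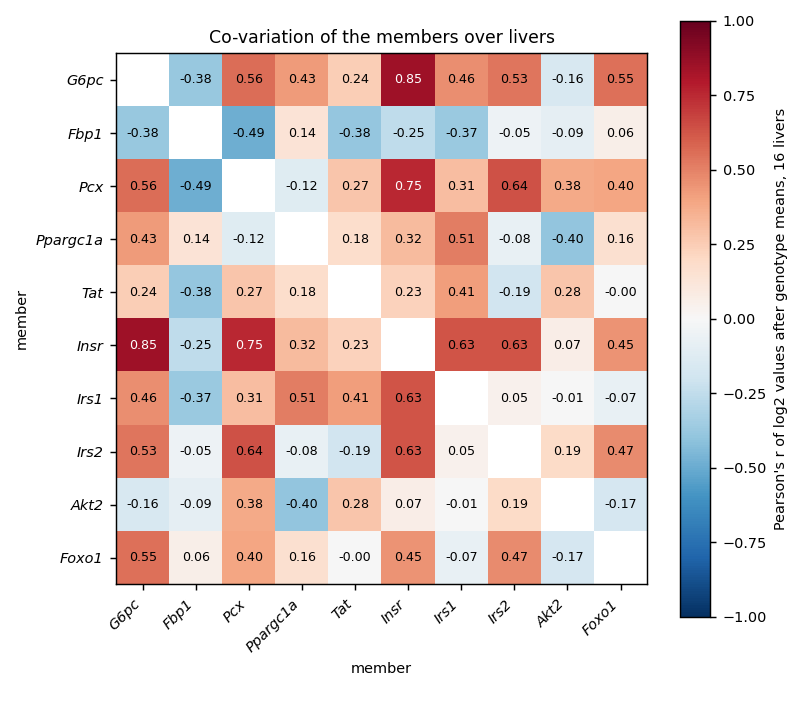
Pearson's r between the 10 genes (both axes) over 16 livers after subtracting genotype means, with r printed in each cell and coloured from -1 (blue) to 1 (red). Insr has r of 0.63 or more with G6pc, Pcx, Irs1 and Irs2, while Fbp1 and Akt2 have no r above 0.38 with another member.

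G6pc is repressed by insulin and the lipogenic genes that SREBP-1c drives are induced by it. The log2 level of G6pc ran against the mean of 15 insulin-induced lipogenic genes over livers, at r = -0.72 and rho = -0.69 after genotype means (permutation p = 0.00376 and 0.00889, adjusted over 30 relations 0.0801 and 0.143). It was -0.78 without wild type 3 and Ncoa5+/- 4, and -0.70 without the 4 Zhx2-low livers. Irs2 ran with the mean of 18 other FOXO1 target genes at r = 0.77 and rho = 0.71 (permutation p = 0.00534 and 0.00951, adjusted 0.0801 and 0.143), at 0.76 without wild type 4 and Ncoa5+/- 1. Foxo1 itself gave r = 0.57 and rho = 0.54 with that list (permutation p = 0.0427 and 0.0406, adjusted 0.257 and 0.295). Of the 30 relations of 10 members with 3 lists, 0 passed after adjustment. These 3 lists were picked from a larger set of gene lists after the data had been seen. The adjustment covers these 30 relations only and not that choice, so the p-values here may be too small. Against the lipogenic list, Foxo1 (r = -0.54), Insr (-0.50), Pcx (-0.35), Irs2 (-0.34), Ppargc1a (-0.31) and Irs1 (-0.30) had the same sign as G6pc. Fbp1 had the opposite sign there, with r = 0.48 and rho = 0.54 (adjusted permutation p = 0.328 and 0.295), as did Akt2 (r = 0.46) and Tat (0.08). The third list, 18 clock genes, gave r between -0.49 and 0.46. The mice fed freely, the sources used here give no time since the last meal, and its part was not tested.

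**Figure D4:**
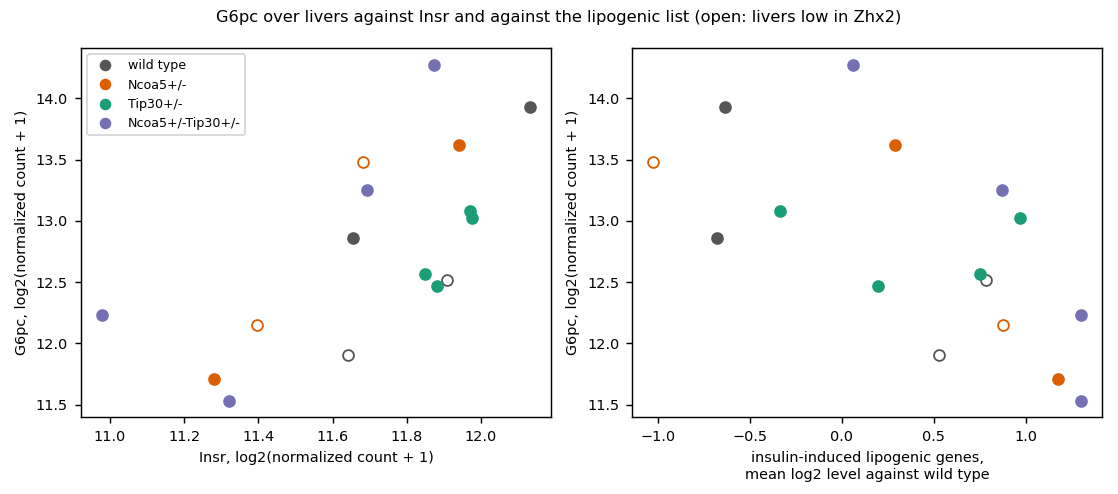
G6pc as log2(normalized count + 1) (vertical axes) in 16 livers against Insr on the same scale (left) and against the mean log2 level of 15 lipogenic genes relative to wild type (right), by genotype, with livers low in Zhx2 open. Both panels show values before genotype means were subtracted; G6pc is higher where Insr is higher and lower where the lipogenic mean is higher.

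The genes most like each member were sought among 11876 genes with a mean of at least 50, by Pearson's r after genotype means over the same 16 livers, as a description without a test. Closest to Insr were Fam91a1 (r = 0.97), the canalicular export pump gene Abcc2 (0.96) and Apob (0.96), the apolipoprotein of very low density lipoprotein. Closest to G6pc were Zdhhc20 (0.95), the translation factor gene Eif5 (0.95) and Pik3ca (0.95), a catalytic subunit of PI3-kinase. Irs1 was most like Aff1 (0.94), Trim32 (0.93) and Cpsf6 (0.93), and Irs2 most like Cblb (0.88), Rai2 (0.87) and Zfp36l2 (0.87). Pcx was most like Pag1, Atg2b and Atrnl1 (0.90 each). The highest r of Fbp1 was with Kmt5a (0.90), that of Foxo1 with Sox6 (0.88) and that of Akt2 with Setd6 (0.87). Tat had lower and less steady likeness: Dmxl2 fell from 0.86 to 0.50 without the 4 Zhx2-low livers and Senp2 from 0.84 to 0.62. Ppargc1a had the lowest, 0.80 with Gm45871 and with Cmtr2.

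Around the 10 members, 13 lists of related genes were counted in the same fit. From here on, the amount by which a gene fell is a log2 difference ± SE. For the averaged Ncoa5 deletion 3.94% of all genes tested were higher and 3.95% lower, and without the 4 Zhx2-low livers 2.65% and 1.29%. The gluconeogenic enzymes had 2 of 26 tested genes higher and 3 lower, with a median log2 difference of -0.07 beside -0.01 for all genes. Gpt2, which makes pyruvate from alanine in mitochondria, fell by 0.95 ± 0.20 (limma adjusted p = 0.0118), with 6739 ± 2067 in wild type, 9446 ± 811 in Tip30+/-, 3895 ± 1823 in Ncoa5+/- and 4684 ± 1208 in double heterozygotes (SD, n = 4 each). Sds, serine dehydratase, fell by 0.58 ± 0.11 (0.00402, limma) and Slc25a13, the mitochondrial aspartate-glutamate carrier, by 0.36 ± 0.09 (0.0310), while the mitochondrial carboxykinase gene Pck2 rose 1.66-fold (0.0236) from a low level of 65.6 ± 12.4 in wild type. Pck1, the cytosolic carboxykinase and a classical target of glucagon, chosen here after its values were seen, held 64699 ± 39717 in wild type, 68989 ± 26313 in Ncoa5+/-, 81328 ± 20766 in Tip30+/- and 56701 ± 25863 in double heterozygotes (log2 difference -0.20, limma adjusted p = 0.735 for the averaged Ncoa5 deletion). Without the 4 Zhx2-low livers, 0 genes of the list were higher and 3 lower.

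Most other lists of glucose and amino acid metabolism had more falls than rises under the averaged Ncoa5 deletion. Of 24 tested enzymes of amino acid breakdown and the urea cycle, 6 were lower and 0 higher, beside 3.95% of all genes lower, with a median of -0.28 and 1 of 24 above 0. They included the lysine enzyme gene Aass (fell by 0.52 ± 0.11, limma adjusted p = 0.0118), Ahcy (fell by 0.60 ± 0.15, 0.0245), Aadat (fell by 0.50 ± 0.09, 0.00447) and the glycine decarboxylase gene Gldc (fell by 0.56 ± 0.15, 0.0334). Without the Zhx2-low livers 1 was lower. Of 32 regulators of glucose output, 3 were lower and 0 higher: Prkacb, a catalytic subunit of protein kinase A, the Krüppel-like factor gene Klf15 and the glucocorticoid receptor gene Nr3c1 (fell by 0.33 ± 0.08, 0.49 ± 0.12 and 0.28 ± 0.08, limma adjusted p = 0.0186, 0.0265 and 0.0359), with 1 lower without the Zhx2-low livers. Glycolysis and glycogen enzymes had 1 higher (Hk3, 1.67-fold) and 2 lower of 26 (Pdk2 and Pdha1), and 1 and 0 without those livers. Glucocorticoid targets had 0 of 11 in either direction, with the lowest p at Tsc22d3 (-0.34 ± 0.13, limma adjusted p = 0.107), 1 higher and 1 lower at an unadjusted p under 0.05.

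Among 13 partners and targets of PGC-1alpha, 4 were lower and 0 higher (median -0.23) for the averaged Ncoa5 deletion. Of all genes tested 3.95% were lower and 3.94% higher, and these shares stand beside each list of this paragraph. Without the Zhx2-low livers 2 of the 13 were lower. Esrrg, an orphan nuclear receptor that PGC-1alpha coactivates, fell by 1.12 ± 0.19 (limma adjusted p = 0.00191), from 148 ± 49.0 in wild type and 175 ± 42.1 in Tip30+/- to 61.3 ± 11.8 in Ncoa5+/- and 86.2 ± 25.3 in double heterozygotes. The respiratory chain gene Ndufs1, the mitofusin gene Mfn2 and the ATP synthase gene Atp5b fell by 0.26 ± 0.07, 0.23 ± 0.06 and 0.23 ± 0.07 (0.0265, 0.0334 and 0.0408, limma). The mitochondrial share of reads was lowest in 3 livers with the Ncoa5 deletion, and its relation to these lists was not tested. The clock list had 1 of 18 lower (Hlf, fell by 0.33 ± 0.10), the periportal list 2 of 12 (Ctsc and Sds) and the pericentral list 3 of 14 (Slc1a2, Slc22a3 and Glul, fell by 0.69 ± 0.17, 0.73 ± 0.18 and 0.44 ± 0.11), with 0 higher in each. Without the Zhx2-low livers these 3 lists had 0, 3 and 4 lower.

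In the insulin pathway itself, 3 of 31 tested core genes were lower and 0 higher for the averaged Ncoa5 deletion, beside 3.95% of all genes lower, with a median of -0.15, and 0 passed without the Zhx2-low livers. These were Foxo4, a relative of Foxo1 (fell by 0.36 ± 0.09, limma adjusted p = 0.0287), Akt1, which encodes another AKT form (fell by 0.29 ± 0.07, 0.0295), and Pde3b, the phosphodiesterase through which insulin lowers cAMP (fell by 0.43 ± 0.11, 0.0311). In double heterozygotes Akt1 lay below every wild-type liver, at 2510 ± 220 against 3490 ± 259 (fell by 0.48 ± 0.11, limma adjusted p = 0.0254). Of 18 other FOXO1 target genes, 4 were lower and 0 higher, and 1 was lower without the Zhx2-low livers. These were Sesn1, Cited2, Sesn3 and Klf15 (limma adjusted p between 0.0178 and 0.0265), and Cited2 fell from 961 ± 92.2 in wild type to 508 ± 117 in double heterozygotes (by 0.94 ± 0.22, limma adjusted p = 0.0306). The classical FOXO1 target Igfbp1, chosen after its values were seen, ranged from 55.7 to 1812 in wild type alone and gave 0.91 (limma adjusted p = 0.488). Of 15 insulin-induced lipogenic genes 1 was lower (Dgat2, fell by 0.35 ± 0.09) and 0 higher, and 2 were higher and 1 lower without the Zhx2-low livers.

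Of 30 inhibitors of insulin signalling, 4 were higher and 0 lower for the averaged Ncoa5 deletion, beside 3.94% of all genes higher, with a median of 0.00, and 2 were higher without the Zhx2-low livers. The list was drawn up with earlier results known, the rise of Phlda3 among them, so that 3 of the 4 stand without it. Phlda3, which encodes a pleckstrin homology domain protein that competes with AKT for membrane lipids and is a known p53 target, held 43.0 to 115 normalized counts in wild-type livers and 33.8 to 54.5 in those of Tip30+/- mice. It held 1744 to 4371 in Ncoa5+/- and 880 to 4114 in double heterozygotes, so the 8 livers with the Ncoa5 deletion lay wholly above the others (39.6-fold, limma adjusted p = 6.52e-07). Ddit4, whose product REDD1 restrains mTORC1, rose 1.85-fold (log2 0.89 ± 0.16, 0.00281, limma), at 397 ± 112 in Ncoa5+/- and 391 ± 99.6 in double heterozygotes against 206 ± 52.1 in wild type. Inppl1, the SHIP2 phosphatase gene, rose 1.19-fold (0.0354, limma) and the adaptor gene Sh2b2 1.62-fold (0.0461).

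Single comparisons with wild type held fewer calls in these lists. In Ncoa5+/- livers, Phlda3 rose and Esrrg fell, and no other gene of the 13 lists passed. In double heterozygotes Phlda3 and Ddit4 rose, and Akt1, Cited2, Aadat, Gldc and Glul fell. In Tip30+/- livers, for the averaged Tip30 deletion and for the interaction, 0 genes of the 13 lists passed by limma. At an unadjusted p under 0.05, the averaged Tip30 deletion had 5 higher of 26 glycolysis and glycogen enzymes and 4 higher of 18 clock genes, where 5.12% of all genes tested were higher at that p.

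Markers of other liver cells moved with the Ncoa5 deletion too. Of 6 T and NK cell markers, 4 were higher and 0 lower for the averaged Ncoa5 deletion. Of all genes tested 3.94% were higher, the share to set beside each marker count here. The summed counts of the T and NK cell markers ran from 126 to 341 for wild type and from 162 to 295 for Tip30+/-. They ran from 355 to 524 in Ncoa5+/- and from 319 to 448 in double heterozygotes. Cd8a, a T cell coreceptor, rose from 6.25 ± 4.03 in wild type to 59.2 ± 25.1 in Ncoa5+/- (limma adjusted p = 0.00517). Among stellate markers 2 of 6 were higher (Col1a1 and Col3a1) and among cholangiocyte markers 1 of 5 tested (Spp1, 1.96-fold). Livers with and without the deletion overlapped in the sums of all 3 lists. Stellate sums ran from 5242 to 6538 in wild type, 5269 to 5849 in Tip30+/-, 5080 to 8431 in Ncoa5+/- and 5536 to 7605 in double heterozygotes. Cholangiocyte sums ran from 593 to 914 in wild type, 663 to 1663 in Tip30+/-, 1100 to 1595 in Ncoa5+/- and 1063 to 2083 in double heterozygotes, so that 1 Tip30+/- liver lay above every Ncoa5+/- liver. Every marker of these 3 lists had counts in some liver. Without the 4 Zhx2-low livers these lists had 3, 2 and 1 higher. None of 8 macrophage, 6 endothelial, 7 hepatocyte, 2 neutrophil, 1 adipocyte or 2 pancreas markers tested passed by limma for the averaged Ncoa5 deletion, with 2, 1, 1, 2, 0 and 0 higher and 1 hepatocyte and 1 pancreas marker lower at an unadjusted p under 0.05, and no muscle marker reached the filter. In whole liver, fewer cells of a type and less RNA per cell cannot be told apart, and the part of cell composition in the lists above was not tested.

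**Figure D5:**
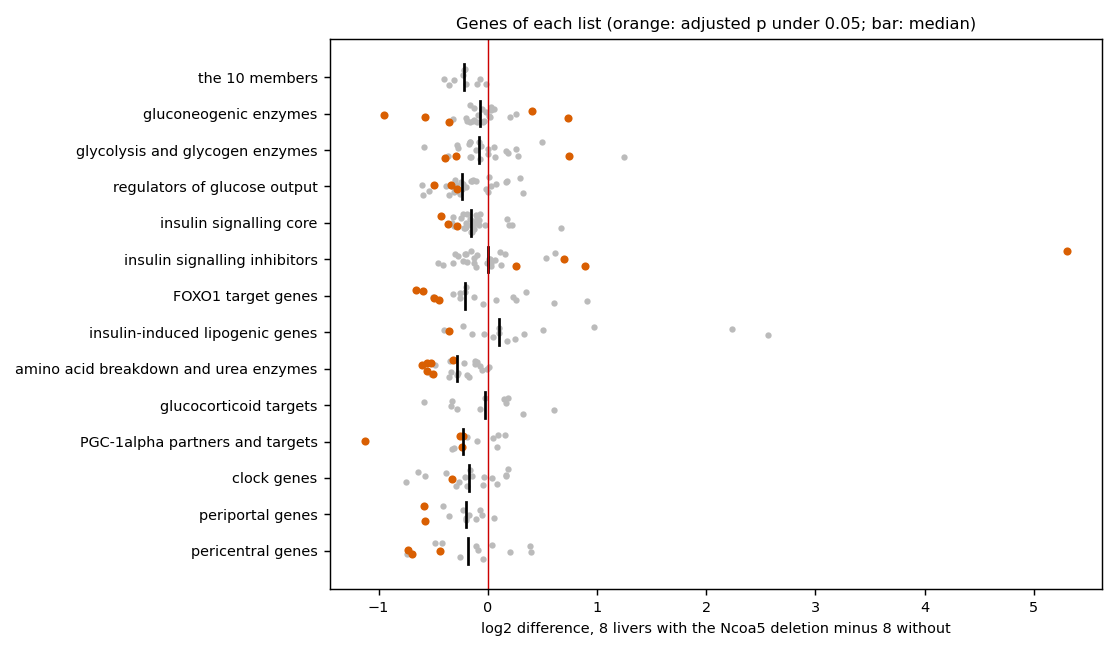
Log2 difference (horizontal axis) of livers with the Ncoa5 deletion from those without it, fitted over 4 genotypes, for every tested gene of the 10 members and 13 lists (rows), with genes at an adjusted p under 0.05 in orange and the median as a black bar. Phlda3 lies alone beyond 5, no member is orange, and the orange genes of most metabolic lists lie below 0.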

How the data were processed

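Liver poly(A) RNA was sequenced from 16 mice, 1 library each. Per the labels and the submitters' processing notes, the authors used Trimmomatic 0.36 for trimming, STAR 2.6.0c for alignment to GRCm38 and DESeq2 1.28.1 for normalization. The deposited signal values are gene read counts divided by a size factor per library (0.840 to 1.17). The sources used here give no counting program, annotation or strand setting. In every library 100% of values were whole multiples of 1 step (tolerance 1e-04), which gave the reads back for the count tools. No 2 libraries were copies of each other (lowest chi-square per gene 23.0).

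The main test was limma 3.58.1 (trend, robust) in R 4.3.3 on log2(value + 1), with 4 genotype means over 16 libraries, 2-sided, Benjamini-Hochberg over 15263 genes with a mean of at least 10, and calls at an adjusted p under 0.05. Folds are on this log2(value + 1) scale, which understates changes of low genes. The values are not counts as deposited, so edgeR 4.0.16, DESeq2 1.42.0 and limma-voom on the recovered reads were alternatives. Others were pseudocounts of 0.5 and 5, no filter, a mean of at least 50, TMM scaling, moderation that is not robust, mouse tag numbers (under 4300 or not) as a covariate, the compared pair of groups alone, and each liver left out. Leaving out the 4 livers low in Zhx2 was applied to members, lists and list relations, for the last 2 after the data had been seen. Correlations used 100000 permutations within genotypes. The chain was tested on simulated counts for double heterozygotes against wild type. It recovered 32.3% of true 1.5-fold changes, 74.1% of 2-fold and 96.0% of 4-fold changes. A gene that does not pass may therefore still differ.

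The members and the 23 gene lists (13 of pathways, 10 of cell markers) were chosen with earlier results of these data known. The study's mice are separate animals, and numbers 1 to 4 within a genotype follow accession order. Named were all 10 members, up to 4 passing genes of each list by smallest p, or else the 2 of smallest p as values, and genes among the 3 most like each member, of which 1 is not reported here. TPM values used recovered reads and GENCODE M21 exon lengths.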

Additional observations from a re-analysis of the deposited data

Results flagged for a closer look

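In 2 of 40 groups of 4 livers, 1 liver lay far from the other 3, with a gap to its nearest neighbour above Dixon's 95% critical value, where chance flags about 1 in 20 groups. Ppargc1a held 277 normalized counts in Ncoa5+/- 4, a liver low in Zhx2, and at most 186 in the other 3 of that genotype. Irs2 held 1917 in wild type 4 and at most 987 in the other 3 wild-type livers. Wild type 4 also had the highest G6pc, Pcx, Ppargc1a, Insr and Foxo1 of its group.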

How the results depend on the processing

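Of 1650 values of the 10 members under 28 other settings, 1642 stayed on the same side of the threshold, 8 were newly called and 0 lost or reversed a call, since none was called at first. The sign of an uncalled value differed in 96. For the averaged Ncoa5 deletion 2 members passed with the mouse tag covariate, 1 with DESeq2, and 0 to 2 with 1 liver left out. In every other comparison 0 members passed under each setting. Counts over all genes moved more. Without the 4 Zhx2-low livers they were 29 for Ncoa5+/-, 6 for Tip30+/- and 121 for double heterozygotes against wild type, 602 for the averaged Ncoa5 and 5 for the averaged Tip30 deletion. DESeq2 gave 257, 43 and 1044 for the 3 pairs, 246 for the averaged Tip30 deletion and 1 for the interaction. The mouse tag covariate gave 697 for double heterozygotes, 1937 and 51 for the averaged deletions. The compared groups alone gave 56 for Ncoa5+/- and 107 for double heterozygotes, and no filter gave 34 for the averaged Tip30 deletion. With 1 liver left out the ranges were 45 to 90, 1 to 8 and 88 to 846 for the 3 pairs, 610 to 1602 and 15 to 114 for the averaged deletions and 0 to 0 for the interaction; the cause was not tested. TMM scaling let 1 of 45 pairs pass and moved no comparison's median by more than 0.034. No paired analysis was possible because replicate numbers follow accession order and pair no mice. With 4 livers a group, intervals for G6pc and Irs2 hold changes of 1.5-fold in either direction in Ncoa5+/-.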
